A study of Mus musculus with 6 samples.

Results

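The miR-10 and miR-196 microRNAs are encoded inside the Hox gene clusters. They were followed here in small RNA libraries of mouse iBN cells, a suspension line grown with GM-CSF that the labels describe as granulocyte-macrophage progenitors and in which PU.1, a transcription factor of myeloid development (gene Spi1), can be switched on. Every mature name from the hairpins of miR-10a, miR-10b, miR-196a (both copies) and miR-196b was taken, which gave 9 of the 1915 names in the table. Uninduced cells (3 libraries) were compared with cells that had been kept for 72 hours in doxycycline at 1000 ng/ml (3 libraries), each group holding trials 1, 2 and 3. All 6 libraries came from cells that carry the inducible system, so doxycycline and PU.1 induction cannot be told apart, and small RNA libraries give no level of PU.1. Whether the trials were separate cultures is not stated, so p-values reflect only the spread among these libraries, part of which may be technical.

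MicroRNAs are short RNAs cut from hairpin precursors, and the arm that is loaded into Argonaute pairs with messenger RNAs mainly through its seed, bases 2 to 8 from the 5′ end. The miR-10 and miR-196 hairpins sit at fixed places among the Hox genes, which encode the transcription factors that pattern the body axis and that also act in blood progenitors. miR-10 and miR-196 are both known to target Hox messenger RNAs, and miR-196b is best known from leukaemias with high expression of Hoxa genes.

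The mature sequences show how little separates the paralogues. The 4 sequences below are the 5p arms from RefSeq (GRCm38.p6), 5′ to 3′, with the seed in capitals; all 9 names were matched there.
mmu-miR-10a-5p: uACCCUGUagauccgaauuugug
mmu-miR-10b-5p: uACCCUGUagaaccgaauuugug
mmu-miR-196a-5p: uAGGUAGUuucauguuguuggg
mmu-miR-196b-5p: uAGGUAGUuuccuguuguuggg
Counted from the 5′ end, miR-10a-5p and miR-10b-5p differ by U12A (the miR-10a base first), and miR-196a-5p and miR-196b-5p by A12C (the miR-196a base first). Both differences lie outside the seed, so each pair shares its seed, and no other mature mouse name in the RefSeq table had either one. A read of miR-10a-5p is thus told from one of miR-10b-5p by a single base, and how the authors' counting treated mismatches is not given in the sources used here.

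The hairpins lie in 4 different Hox clusters. In GRCm38, the mm10 assembly, Mir10b (chr2:74726070-74726137, plus strand) lay in introns of Hoxd3 and Hoxd4 transcripts. Mir10a (chr11:96317165-96317274, plus strand) overlapped no host gene and lay 992 bases before Hoxb4. Mir196a-1 (chr11:96265164-96265265, plus strand) lay in the same Hoxb cluster, 51.9 kb before Mir10a and 6191 bases before Hoxb9. Mir196a-2 (chr15:102973350-102973434, plus strand) lay in an intron of a Hoxc5 transcript, 1456 bases from Hoxc10 and 3004 bases from Hoxc9. Mir196b (chr6:52230081-52230165, minus strand) overlapped exons of Hoxa9 transcripts and lay 1031 bases from Hoxa10.

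**Figure D1:**
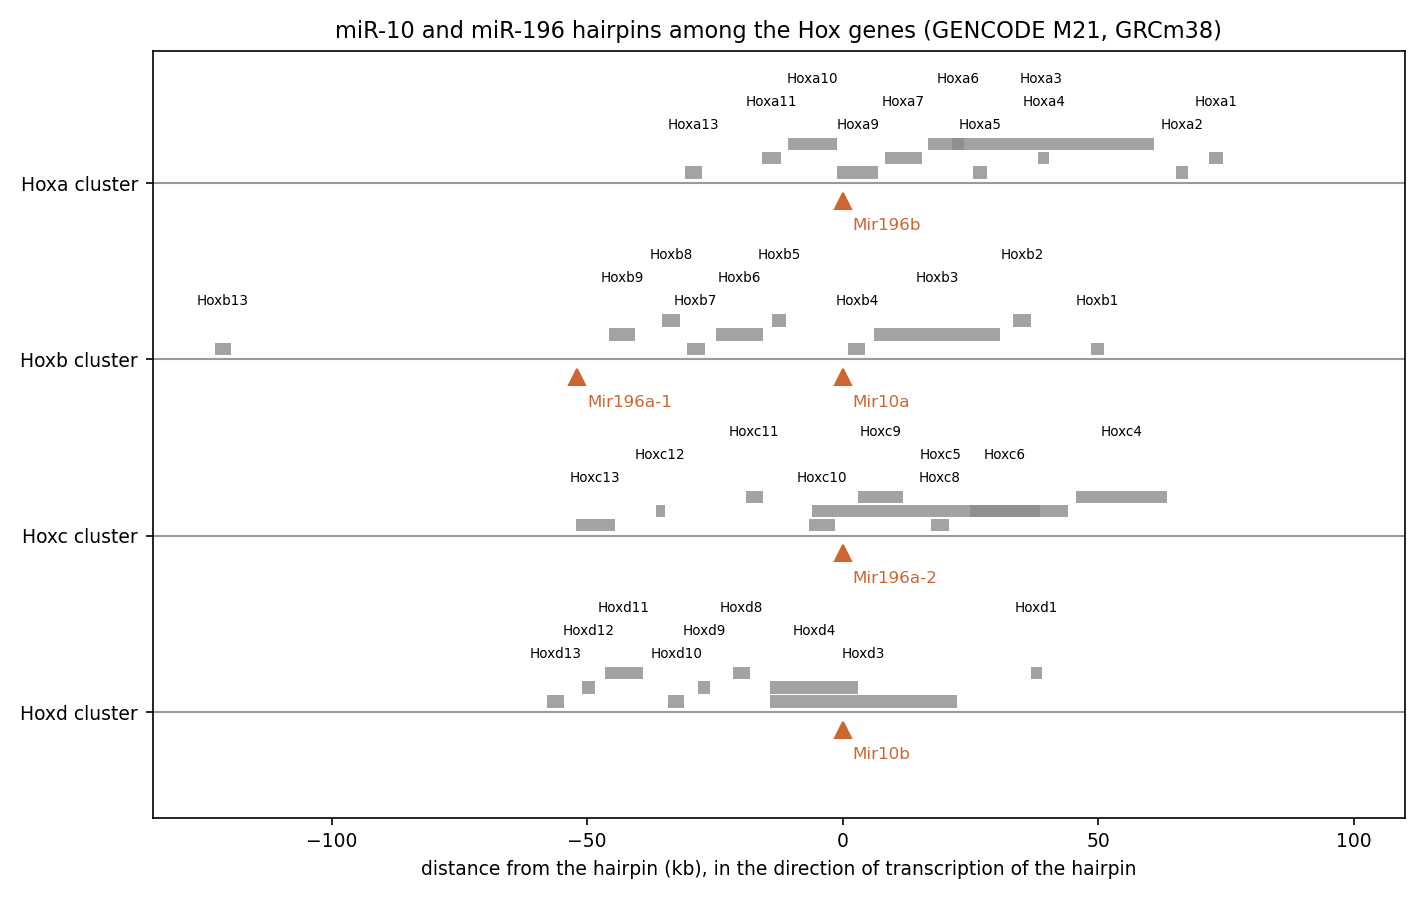
Position of the 5 hairpins (orange triangles) among the Hox genes (grey bars, full extent of all annotated transcripts) of the 4 clusters, in kb from the hairpin at 0 and in its direction of transcription; bar heights only separate overlapping genes. Mir10a and Mir10b lie near the group 4 genes Hoxb4 and Hoxd4, and the miR-196 hairpins lie at or next to the group 9 genes of their clusters.

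The hairpins of the paralogues differ more than their 5p arms. They are shown with both mature arms in capitals, because the 3p arms are the ones that were hardly read here.
Mir10a: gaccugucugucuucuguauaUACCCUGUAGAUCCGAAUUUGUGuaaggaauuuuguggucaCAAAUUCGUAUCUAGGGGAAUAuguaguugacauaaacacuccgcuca
Mir10b: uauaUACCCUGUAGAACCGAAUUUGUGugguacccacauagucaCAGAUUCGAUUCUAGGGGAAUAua
The 3p arms of the pair differ by A3G, U9A and A10U (the miR-10a base first), the first of them inside the seed.

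The libraries held 8697384 to 13946613 counts after 1 entry was kept per mature name. A read that matches several names appears to be counted under each, so these totals can hold it more than once. Where a library had 0 reads of a name, the level may still have been as high as 0.215 to 0.345 CPM, depending on the library. Count intervals and such limits cover counting error only, since no molecular identifiers are described. Of the microRNAs listed as haematopoietic, not all of them particular to blood cells, 5 of 5 were present, among them miR-142a and miR-223. Their summed level was 197015 to 256613 CPM in uninduced and 205070 to 255131 CPM in induced libraries. Most of it was miR-146b-5p (4219779 reads uninduced and 5105475 induced), while miR-223-3p had 187247 and 182975 reads. CPM are counts scaled to library size with edgeR's TMM factors. Muscle, neural, liver, erythroid and embryonic stem markers each summed to at most 1.46 CPM in every library, with miR-206-3p, miR-124-3p and miR-144-3p at 0 reads.

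Of the miR-10 and miR-196 names, miR-10b-5p alone passed the test. This Hoxd paralogue, the most abundant of them, fell 4.65-fold, while miR-10a-5p, the Hoxb paralogue, did not pass and had the higher mean in induced cells (11.8 against 7.94 CPM). miR-196b-5p, from the Hoxa cluster, was present at a trace level in both groups. miR-196a, from the Hoxb and Hoxc clusters, had 0 reads. Of the 9 names, 2 passed the filter on low counts (miR-10a-5p and miR-10b-5p), 2 had a few reads and 5 had 0 reads in all 6 libraries together.

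miR-10b-5p (mmu-miR-10b-5p) had 890, 686 and 777 reads in uninduced trials 1, 2 and 3, or 95.01, 76.2 and 71.1 CPM. In the induced libraries it had 207, 167 and 221 reads, or 17.2, 18.7 and 16.2 CPM. Each induced library lay below every uninduced one, and the lowest uninduced value was 71.1 CPM against a highest induced value of 18.7 CPM. The group means were 80.8 CPM ± 12.6 without and 17.4 CPM ± 1.26 with induction (SD, n = 3 each). The log2 change was -2.22 (SE 0.16, edgeR quasi-likelihood test, adjusted p = 2.4e-05). For comparison, 6.1% of the 525 tested microRNAs passed this test (3.43% upward and 2.67% downward), 21.7% passed it with the trial as a block, and the groups did not overlap for 27.6% (11.6% with the induced group lower). Only miR-2137, miR-708-3p and miR-708-5p had a more negative fitted log2 change among the 525, and of these 3 miR-708-3p alone passed the test. In order of mean level, miR-10b-5p went from rank 176 to rank 290 of the tested microRNAs.

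The fall of miR-10b-5p was of similar size in each trial. Its log2 change was -2.47 in trial 1, -2.03 in trial 2 and -2.13 in trial 3. It passed the edgeR test in every one of the 6 fits that left out 1 library, with log2 changes from -2.31 to -2.10 and adjusted p from 4.0e-06 to 0.0013.

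miR-10a-5p was much rarer than miR-10b-5p without induction, and it did not pass the test. miR-10a-5p (mmu-miR-10a-5p) had 71, 91 and 67 reads in uninduced trials 1, 2 and 3, or 7.58, 10.1 and 6.13 CPM, and 108, 97 and 213 reads induced, or 8.97, 10.9 and 15.6 CPM. The groups overlapped, since uninduced trial 2 lay above induced trial 1, and induced trial 3 stood above the other 5 libraries. The group means were 7.94 CPM ± 2.01 without and 11.8 CPM ± 3.44 with induction (SD, n = 3 each). The log2 change was 0.58 (SE 0.26, edgeR adjusted p = 0.237). The change within trials was 0.24, 0.10 and 1.35 on the log2 scale, so that most of it came from trial 3. Without induced replicate 3 the fitted log2 change was 0.28 (edgeR adjusted p = 0.582), and without both libraries of trial 3, with the trial as a block, it was 0.16 (edgeR adjusted p = 0.467).

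**Figure D2:**
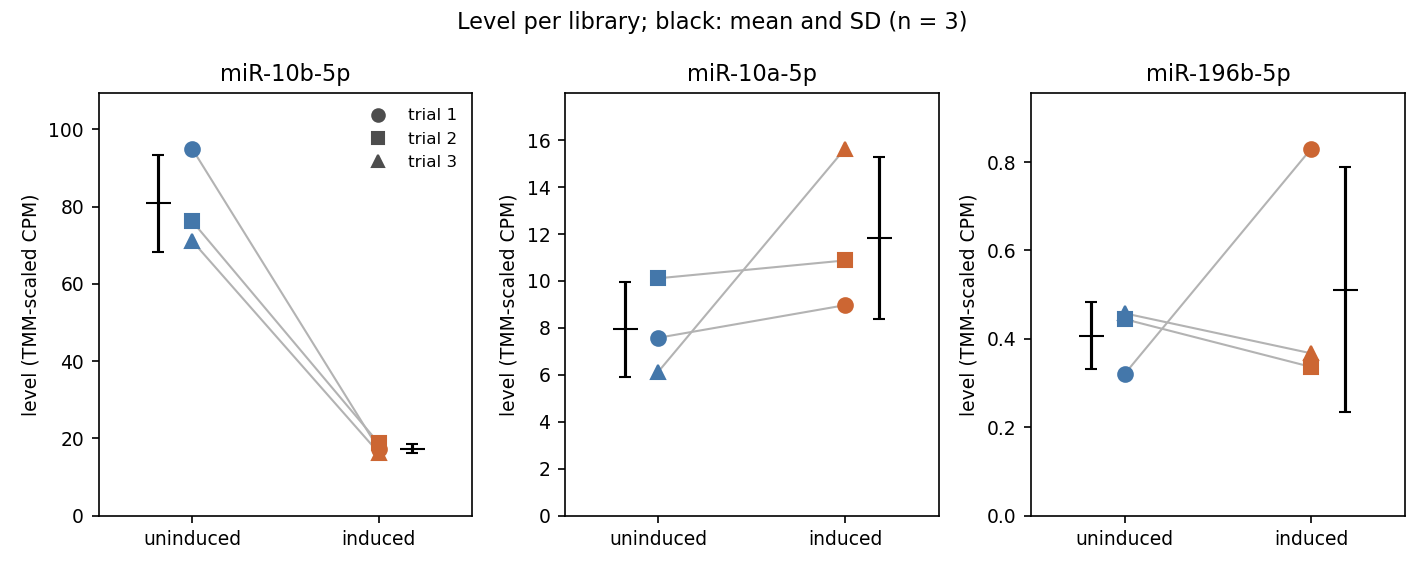
Level in TMM-scaled CPM (vertical axes from 0, one scale per panel) of miR-10b-5p, miR-10a-5p and miR-196b-5p in uninduced (blue) and induced (orange) libraries; grey lines join libraries of the same trial, and black marks give the mean and SD of 3 libraries. miR-10b-5p drops from 71.1 CPM or more to 18.7 CPM or less in all 3 trials, whereas miR-10a-5p overlaps between groups and its highest value, 15.6 CPM, is induced trial 3.

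The response of the paralogues was compared within each library by the ratio of their reads, which needs no scaling between libraries. Uninduced cells had 12.5, 7.54 and 11.6 reads of miR-10b-5p for each read of miR-10a-5p in trials 1, 2 and 3. Induced cells had 1.92, 1.72 and 1.04. The groups were far apart, the lowest uninduced ratio being 7.54 and the highest induced ratio 1.92. The log2 ratio averaged 3.37 ± 0.40 uninduced and 0.59 ± 0.47 induced (SD, n = 3 each), a difference of -2.77, or 6.84-fold. The exact two-sided permutation test gave p = 0.1, the smallest that this test can give for 3 libraries against 3, so it cannot go below 0.05 whatever the size of the difference. The difference was larger than the SD of either group. It was -2.71, -2.13 and -3.48 in trials 1, 2 and 3.

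Seen as shares, miR-10b-5p made up 92.6% of the reads of the pair in uninduced trial 1 (exact 95% binomial interval 90.8 to 94.2%), 88.3% in trial 2 (85.8 to 90.5%) and 92.1% in trial 3 (90.0 to 93.8%). In induced cells its share was 65.7% in trial 1 (60.2 to 70.9%), 63.3% in trial 2 (57.1 to 69.1%) and 50.9% in trial 3 (46.1 to 55.7%). Thus miR-10b-5p was the more frequent of the pair in 5 of 6 libraries beyond counting error, and in induced trial 3, with 221 reads against 213, the order could not be told.

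**Figure D3:**
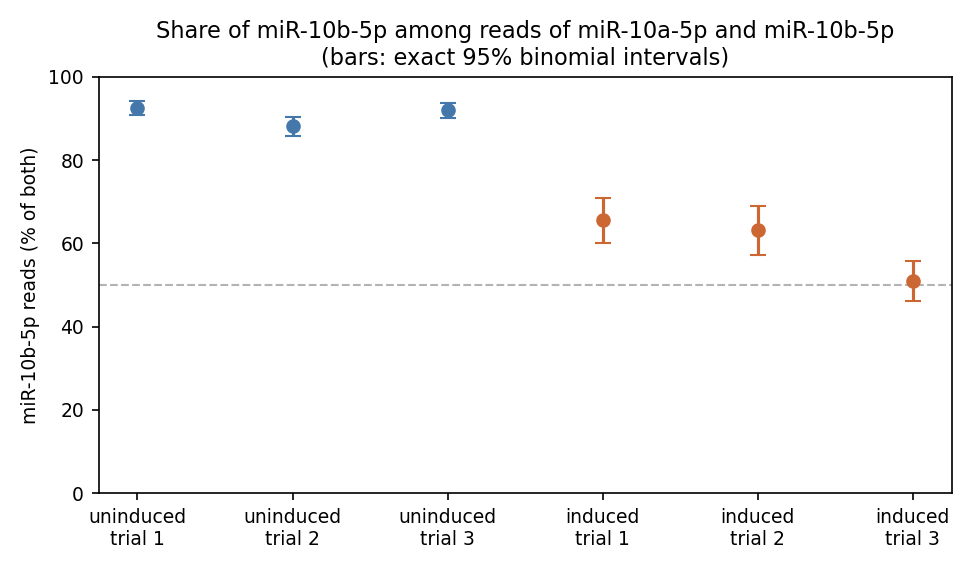
Reads of miR-10b-5p as a percentage of the reads of miR-10a-5p and miR-10b-5p in each library (uninduced blue, induced orange), with exact 95% binomial intervals that cover counting error only; the dashed line marks 50%. The uninduced libraries lie between 88.3 and 92.6%, the induced ones between 50.9 and 65.7%.

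Because the pair shares its seed, the summed level is the amount of miR-10 seed in the pool. It was 103, 86.4 and 77.3 CPM in uninduced trials 1, 2 and 3, and 26.2, 29.6 and 31.9 CPM in induced ones. The group means were 88.7 CPM ± 12.8 and 29.2 CPM ± 2.88 (SD, n = 3 each), with no overlap between the groups. On the log2 scale the difference was -1.60, or 3.03-fold, with an exact two-sided permutation p = 0.1, again the smallest possible. The ratio and the sum were the 2 values tested this way, and both had a Benjamini-Hochberg adjusted permutation p of 0.1. The summed level was added after the values had been seen.

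The 3p arms of the miR-10 hairpins were nearly absent. mmu-miR-10b-3p had 1 read in uninduced trial 2, 1 in induced trial 3 and 0 in the other 4 libraries. That is 2 of 2950 reads of the hairpin, or 0.0678% (exact 95% binomial interval 0.00821 to 0.245%). mmu-miR-10a-3p had 0 of 647 reads of its hairpin, which allows a share of up to 0.464% on a floor of 3 counts, or 0.569% as the upper end of the exact 95% binomial interval. Among the 182 hairpins whose 2 arms, matched by name, had at least 500 reads together, the less frequent arm made up 4.58% in the median, and in 7.69% of them it was as rare as or rarer than in miR-10b (itself counted). With so few reads, whether the arms of either hairpin changed together could not be examined.

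miR-196b-5p (mmu-miR-196b-5p), the Hoxa member, had 3, 4 and 5 reads in uninduced and 10, 3 and 5 reads in induced trials 1, 2 and 3. These are 0.32, 0.44 and 0.46 CPM uninduced, and 0.83, 0.34 and 0.37 CPM induced, so the groups overlapped and induced trial 1 had the highest value. The exact 95% interval of its 10 reads, 4.80 to 18.4, overlaps that of the 5 reads in induced trial 3, 1.62 to 11.7. The filter on low counts left miR-196b-5p out of the edgeR test. Its summed reads were 12 of 29574442 counts uninduced and 18 of 34415802 counts induced. The ratio of induced to uninduced was 1.29 (exact conditional 95% interval 0.587 to 2.93). The interval includes both a fall and a rise, and without induced replicate 1 the ratio was 0.856 (0.303 to 2.28). A change within these bounds was not detectable at this depth.

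mmu-miR-196b-3p, mmu-miR-196a-5p, mmu-miR-196a-1-3p and mmu-miR-196a-2-3p each had 0 of 63990244 counts, as did miR-10a-3p. That allows up to 0.0469 CPM over all libraries (unscaled here). The allowed level is 0.101 CPM in the uninduced and 0.0872 CPM in the induced group. miR-196a-5p can be made from either the Hoxb or the Hoxc hairpin, so its absence of reads covers both copies. miR-10a-5p, encoded 51.9 kb from Mir196a-1 on the same strand of the Hoxb cluster, had 647 reads. That is 216-fold the floor of 3 counts used for miR-196a-5p over all libraries. The 30 reads of miR-196b-5p are 10-fold the same floor. Both folds leave out the counting error of the 647 and the 30 reads. The remaining Hox-cluster hairpin, Mir615, also gave 0 reads of miR-615-5p and of miR-615-3p.

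In both groups the order of the mean levels was miR-10b-5p, miR-10a-5p, miR-196b-5p and then the names with 2 or fewer reads. By cluster, the Hoxd hairpin was read most, followed by the Hoxb hairpin Mir10a and the Hoxa hairpin. In uninduced cells no values of neighbouring members overlapped (71.1 CPM or more, 6.13 to 10.1 CPM, and 0.32 to 0.46 CPM). In induced cells miR-10b-5p (16.2 to 18.7 CPM) and miR-10a-5p (8.97 to 15.6 CPM) were 0.59 CPM apart at their nearest values, which both came from trial 3. That gap, 221 reads against 213, was within counting error. The library kit ligates adapters to both ends of each RNA, a step known to depend on sequence, so levels of different microRNAs compare less well than levels of 1 microRNA between libraries.

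The microRNAs closest to miR-10 in sequence are miR-99a, miR-99b and miR-100, whose 5p seeds begin with the same bases. One abundant member is shown beside miR-10b-5p so that the shared stretch can be seen, again with the seed in capitals.
mmu-miR-10b-5p: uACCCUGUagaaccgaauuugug
mmu-miR-99b-5p: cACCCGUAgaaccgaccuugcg
Compared base by base without gaps, they differ within the seed by U6G, G7U and U8A (the miR-10b base first). With U6 of miR-10b-5p left out, the shared stretch runs on through gaaccga in both. Of the 6 arms of these relatives 3 were tested and 0 passed in edgeR, with or without the trial as a block. Over all 525 tested, 6.1% passed without the block and 21.7% with it. So few arms cannot be told from these shares. The median log2 change of the 3 tested arms was 0.31, against 0.02 over all 525 tested. An edgeR p below 0.05 before adjustment was seen for 0 of these 3, and for 109 of the 525. miR-99b-5p had group means of 1280 CPM ± 305 without and 1729 CPM ± 501 with induction (SD, n = 3 each), and its log2 change was 0.43 (SE 0.23). For miR-100-5p the means were 6.77 CPM ± 0.48 and 5.59 CPM ± 1.35, and the log2 change was -0.29 (SE 0.22). miR-99b-3p had a log2 change of 0.31 (SE 0.32).

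**Figure D4:**
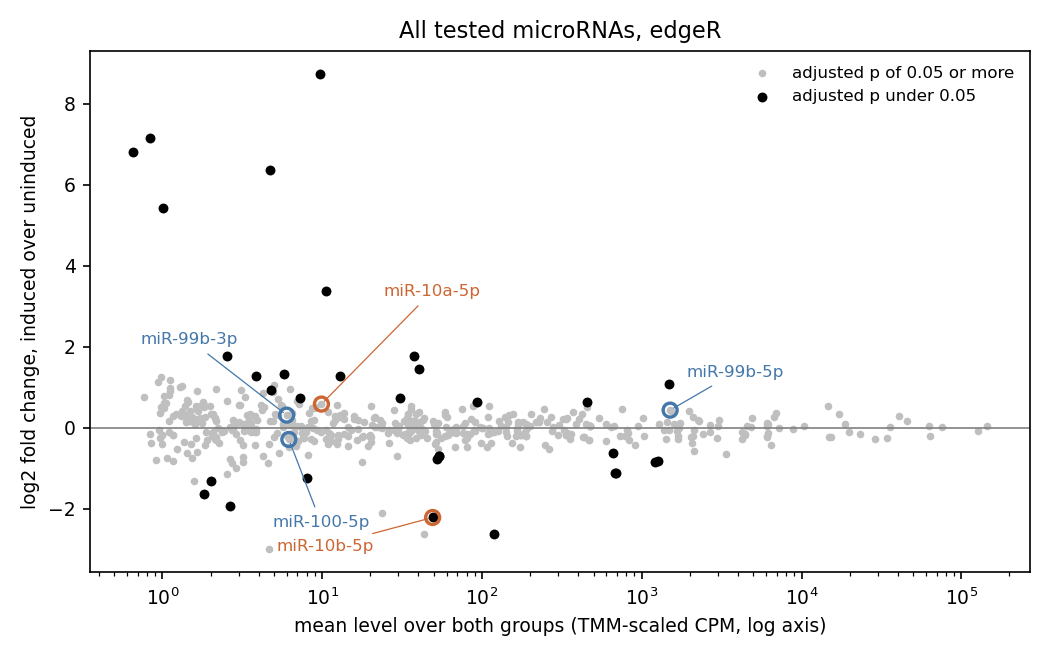
Log2 fold change (induced over uninduced, edgeR) against mean level in TMM-scaled CPM (log axis) for the 525 tested microRNAs; black points passed the test, orange circles mark miR-10a-5p and miR-10b-5p and blue circles the tested relatives miR-99b-5p, miR-99b-3p and miR-100-5p. miR-10b-5p, at -2.22, lies below nearly all others, while miR-10a-5p and the relatives lie within the grey band.

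miR-10 is also known from blood progenitors and from stromal cells, so microRNAs of both kinds were examined. Of 12 progenitor-associated microRNAs, among them miR-125a, miR-126a, miR-181a and miR-221, all 12 were tested and 0 passed in edgeR. Over all tested microRNAs 6.1% passed, and the median log2 change of the 12 was -0.15. With the trial as a block 1 was higher and 3 were lower, while over all tested microRNAs 10.7% were higher and 11% lower with the block. None of the 12 had a fall as large as that of miR-10b-5p, the most negative being miR-125b-5p at -0.85 (SE 0.28, edgeR adjusted p = 0.112). Of the 6 stromal markers, 4 were tested and 2 fell, miR-199a-3p and miR-199b-3p, each by 0.69 on the log2 scale, against 2.67% of all tested microRNAs that fell. Their near-equal counts (1943 and 1942 reads uninduced, 1426 and 1426 induced) mean that these 2 stand for 1 measurement. With those reads counted once, the stromal markers summed to between 229.7 and 270.0 CPM in uninduced and between 144.9 and 215.0 CPM in induced libraries. With the block all 4 were lower. miR-214-3p, another defining stromal marker, had 0 reads, and miR-199a-5p had 19 reads uninduced and 6 induced. The epithelial markers moved the other way, from 31.5 to 39.2 CPM to between 79.3 and 100.2 CPM, with 3 of 4 tested members higher in edgeR, against 3.43% of all tested microRNAs. Whether a change in the kinds of cells had a part in the fall of miR-10b-5p was not tested, and in such bulk samples fewer cells with a microRNA and less of it per cell cannot be told apart.

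The 5 microRNAs whose log2 levels over the 6 libraries were most like those of miR-10b-5p were miR-378c (Pearson r = 0.985), miR-129-2-3p (0.975), miR-199b-5p (0.967), miR-669l-5p (0.953) and miR-210-3p (0.949). All 5 were lower in every induced library than in any uninduced one, as were 11.6% of all tested microRNAs. They were chosen for likeness to miR-10b-5p, whose groups were split in the same way. The likeness thus rests on the difference between 2 groups and is only a description. miR-129-2-3p had a log2 change of -1.92 (SE 0.30, edgeR adjusted p = 0.0044) and miR-210-3p, the hypoxia-induced microRNA, one of -0.81 (SE 0.13, edgeR adjusted p = 0.0058), whereas miR-378c, miR-199b-5p and miR-669l-5p did not pass. miR-10a-5p had r = -0.67 to miR-10b-5p over the same libraries. For miR-10a-5p the nearest were miR-7091-3p (0.965), miR-3572-3p (0.900), miR-466j (0.874), miR-7059-5p (0.843) and miR-200a-3p (0.828), each with a mean below 4 CPM in both groups and none past the test.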

How the data were processed

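The authors deposited raw read counts per mature microRNA and library, per the file headers. Trim Galore 0.4.0, DESeq2 (listed as 2.1.8.0) and mm10 are named in the submitters' processing notes, and the series' design text states alignment to miRBase. For the counter, mismatches and reads with several matches these sources give nothing. Some names had the same count in every library, so reads with several matches appear to be counted in full under each name. Per name, only the most abundant entry was used (17.5% of all counts lie in the others). The test was that of edgeR 4.0.16 under R 4.3.3 (TMM, filterByExpr, robust glmQLFit and glmQLFTest, group only, two-sided, Benjamini-Hochberg at 0.05 over the 525 names kept); the SE is the log2 change divided by the root of F. The fit was tested on simulated data. Ratios of summed reads have exact conditional 95% intervals, and a group at 0 a floor of 3 counts. Likeness used log2 CPM with a prior count of 2. Genes were taken from GENCODE M21, sequences from RefSeq.

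Deviations from the group means correlated by 0.33, 0.45 and 0.53 between libraries of the same trial, and by -0.45 to 0.04 between different trials. Centring on means of 3 libraries ties these values together. The trial number was therefore taken as a pairing for changes within trials and tried as a block, while the main test used the group only. Other alternatives were DESeq2 1.42.0, its size factors, limma-voom (limma 3.58.1), other filters, the sum or the lowest entry per name, and leaving out each library. The members, lists and rule for named microRNAs (all members, miR-615, the arms of miR-99a, miR-99b and miR-100, and the 5 most similar to each tested member) were chosen with earlier results of these data known. miR-2137, miR-708, miR-125b-5p and the marker microRNAs named singly were chosen after their values were seen.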

Additional observations from a re-analysis of the deposited data

How the results depend on the processing

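miR-10b-5p kept its direction and its call under all 17 alternatives, with log2 changes from -2.31 to -2.08, the highest adjusted p (0.032) being that of the blocked fit without trial 3. With the trial as a replicate block its log2 change was -2.21 (edgeR adjusted p = 7.2e-08). miR-10a-5p stayed positive and uncalled in 16 of 17, with 0.59 under the block (edgeR adjusted p = 0.104), but passed at 0.74 (edgeR adjusted p = 0.0115) in the blocked fit without trial 1, an alternative chosen after seeing the data; the cause was not tested. Leaving out 1 library gave it log2 changes of 0.28 to 0.81. The log2 ratio of miR-10b-5p to miR-10a-5p kept its direction in all 9 alternatives, at -2.50 or lower. The block and the sum of entries could not change its main value of -2.77, so they are no check of it. The smallest possible exact permutation p was 0.2 without 1 library and 0.25 by sign flips within trials. The summed level lay between -1.69 and -1.49 without 1 library. The log2 ratio of miR-196b-5p was 0.37, and between -0.22 and 0.65 without 1 library. The number of microRNAs called, 32, was 20 with limma-voom, 114 with the replicate block, 12 to 41 without 1 library, and 66, 60 and 12 with the block and without trials 1, 2 and 3. The ratio of 5p to 3p arms could not be computed, since no 3p arm reached 10 reads in a library. At this depth no change could be examined for the names with 2 or fewer reads.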
